A study of Mus musculus with 17 samples.

Results

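The epithelial junction and keratin genes described here are 10 genes chosen by name, Epcam, Cdh1, Cldn3, Cldn4, Cldn7, Cldn18, Krt7, Krt8, Krt18 and Krt19, among 17555 genes listed in the deposited expression tables. They were found by gene symbol in the tables of tumor cells, TRMs and MDMs. The tumor cell and TRM tables listed all 10, and the MDM table listed 9, without Cldn3. TRMs and MDMs are the population names of the labels, which do not spell them out.

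Epithelial cells hold together through junctions and keep their shape through keratin filaments. EpCAM, encoded by Epcam, is a surface adhesion protein that is widely used to sort epithelial cells, and E-cadherin, encoded by Cdh1, is the cadherin of adherens junctions and binds the catenins. Claudins span the membrane at tight junctions and set what passes between cells, with claudin-18 best known from the alveolar and gastric epithelium. Krt8 and Krt7 are type II keratins that pair with the type I keratins Krt18 and Krt19 in simple epithelia, and E-cadherin has also been described on alveolar macrophages.

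RNA was sequenced from primary cells of tumor-bearing mouse lungs, in 12 libraries that form 6 groups of 2, while the other 5 of the 17 samples in the series were not analysed here. KL mice carried alleles that act after Cre recombination, Lkb1fl/fl among them, which Cre deletes. KLG4 mice had the same alleles and Gpx4m/m in addition, where the m allele carries rox sites around Gpx4 exons and a Dre recombinase that works only after Cre has removed a stop cassette and tamoxifen has been given. All groups received both intranasal Ad-Cre and tamoxifen, and the cells were taken 10 weeks after Ad-Cre. The mice were 8 to 10 weeks old at infection and sex-matched, and the promoter that drives Cre in the virus is not given in the sources used here. Tumor cells were sorted as CD45- CD31- EpCAM+ (the methods in places write CD45+ or CD45.2+ instead), so the protein product of Epcam was itself the sort marker, and the gates for TRMs and MDMs are not given. The study counts the tumor cell samples of a group as separate mice. For TRMs and MDMs no source used here says that the 2 libraries of a group came from separate mice, so the p-values there measure the spread between these libraries, which may be technical.

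The libraries held between 9141000 and 36617000 counted reads (to the nearest 1000). The tumor cell libraries of a genotype lay close together for KLG4 (median absolute difference 0.12 on the log2 scale over 13769 genes) and less close for KL (0.26). The KLG4 pair differed by 3.28 chi-square units per gene, where independent reads of 1 library would give 1 and pairs with both mates counted somewhat more, and the KL pair by 60.4. The KLG4 tumor cell libraries were thus not far from a repeat of 1 library, so their spread, which enters the tumor cell p-values, may be technical. The MDM KL pair was the farthest apart of the 6 groups (0.49 on the log2 scale). Reads of mitochondrial genes and their nuclear copies made up 22.5% and 31.6% of the KL TRM libraries against 2.96% and 5.80% of the KLG4 ones, which shifts every RPKM of that table, and the median log2 fold change of all genes tested in TRMs was 0.38.

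Gpx4 itself was listed at 95.0 and 76.8 RPKM in KL tumor cells against 56.4 and 61.9 RPKM in KLG4 tumor cells (log2 fold change -0.53, limma adjusted p = 0.036). In TRMs it was at 89.8 and 88.2 against 53.8 and 57.0 RPKM, and in MDMs at 44.9 and 71.3 against 93.6 and 97.7 RPKM. Its values count all exons, so they do not isolate the exons that the allele removes. Stk11, the gene of the Lkb1 allele that both genotypes carry, was higher in KLG4 in all 3 tables. In tumor cells its RPKM rose from 25.9 and 25.8 to 61.6 in each KLG4 library (log2 fold change 1.25, limma adjusted p = 9.0e-04). The KL TRM libraries held 21.5 and 23.3 RPKM of it and the KLG4 ones 42.5 and 40.0 RPKM (0.88, limma adjusted p = 0.059). For MDMs the KL libraries gave 62.3 and 72.6 RPKM and the KLG4 libraries 203 and 177 RPKM (1.49, limma adjusted p = 0.68). The genotypes thus differed in the RNA level of this gene too, and its part in the results was not tested.

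The promoter sequences of a few of the genes are shown because Zeb1, Zeb2 and Snai2, repressors that bind the letters CACCTG, were measured in the same libraries and are described with the tumor cells. The sequences are RefSeq promoter entries of the GRCm38.p6 assembly, the 250 bases before the annotated start in 5′ to 3′ direction (for Krt18 the 214 of them that lie outside annotated exons), with CACCTG or its reverse complement CAGGTG in capitals. Epcam is at chr17:87635729-87635978 on the plus strand, Krt18 at chr15:102027966-102028179 on the plus strand, Cldn4 at chr5:134946935-134947184 on the minus strand, and Cldn3 at chr5:134985964-134986213 on the plus strand.
Epcam: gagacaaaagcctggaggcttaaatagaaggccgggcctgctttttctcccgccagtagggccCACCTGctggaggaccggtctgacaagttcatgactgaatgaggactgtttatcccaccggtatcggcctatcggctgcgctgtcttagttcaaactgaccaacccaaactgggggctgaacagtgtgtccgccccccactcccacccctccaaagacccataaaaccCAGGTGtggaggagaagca
Krt18: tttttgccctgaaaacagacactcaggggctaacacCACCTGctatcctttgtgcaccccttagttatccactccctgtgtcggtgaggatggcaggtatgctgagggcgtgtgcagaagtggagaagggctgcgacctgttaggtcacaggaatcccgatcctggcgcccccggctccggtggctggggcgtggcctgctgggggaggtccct
Cldn4: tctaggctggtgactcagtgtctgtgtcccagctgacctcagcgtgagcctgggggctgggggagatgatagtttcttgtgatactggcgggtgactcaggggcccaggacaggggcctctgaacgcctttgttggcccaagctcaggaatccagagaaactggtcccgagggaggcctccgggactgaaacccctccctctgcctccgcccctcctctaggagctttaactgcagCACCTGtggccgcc
Cldn3: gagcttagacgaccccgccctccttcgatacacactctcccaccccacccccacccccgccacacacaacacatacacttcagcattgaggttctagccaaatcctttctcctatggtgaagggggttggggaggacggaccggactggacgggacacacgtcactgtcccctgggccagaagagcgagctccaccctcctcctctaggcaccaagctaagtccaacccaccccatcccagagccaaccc

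Entries existed for 8 of the 10 genes, without Cdh1 and Krt19. CACCTG or CAGGTG was found in 6 of these 8 windows, those of Epcam, Cldn4, Cldn7, Krt7, Krt8 and Krt18, against 19.4% of all genes in a search of 32851 promoters on both strands. Epcam held it in 2 places, Krt18 and Cldn4 once, and Cldn3 not at all. Of the other letters searched on both strands, GGGCGG was in 5 of the 8 windows (35.4% of all genes), CCACCC in 5 (30.6%), TGANTCA in 1, that of Cldn4 (7.82%), and AACNNGTT (4.11%) and TATAAA (14.3%) in none. CCACCC and GGGCGG can share bases where they meet, and a match is a description of letters and not of binding. Whether Zeb1, Zeb2 or Snai2 act on any of the 10 genes was not tested.

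In tumor cells, all 10 genes were lower in KLG4 than in KL. Each fell to between 30.8% and 55.2% of its KL mean, Cldn18 the most and Cdh1 the least, and in each the 2 KLG4 libraries lay below the 2 KL libraries. All 10 passed limma at an adjusted p under 0.05, against 19.6% of the 13769 genes tested that were lower in KLG4 by the same rule, and 42.2% of all genes had both KLG4 libraries below both KL libraries. These calls rest on both KLG4 libraries, since 1 of the 10 passed without KLG4 replicate 1 and 2 passed without KLG4 replicate 2. The median log2 fold change of the 10 genes was -1.05, where that of all genes was -0.09. In bulk samples, fewer cells of a type and less RNA per cell cannot be told apart.

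**Figure D1:**
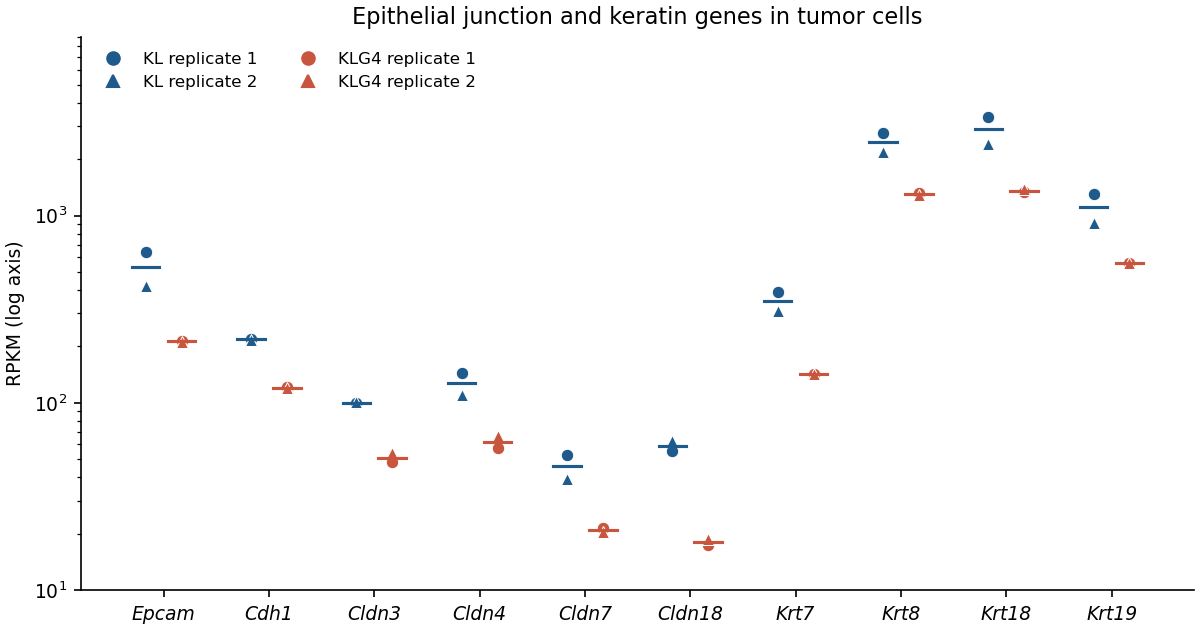
RPKM (log axis) of the 10 genes in each tumor cell library, with KL in blue, KLG4 in red, circles for replicate 1, triangles for replicate 2 and a bar at the group mean (n = 2). All KLG4 points lie below the KL points of the same gene, and Krt8 and Krt18 stand highest in both genotypes.

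Epcam (ENSMUSG00000045394.9, chr17:87635979-87651106, plus strand, GRCm38) was measured at 638 and 419.8 RPKM in KL and at 215 and 211 RPKM in KLG4 tumor cells. The groups did not overlap, and the KL libraries differed from each other by more than the KLG4 libraries did. Its log2 fold change was -1.28 (SE 0.21, limma adjusted p = 0.0073), although the cells had been gated on its protein.

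Cdh1 (ENSMUSG00000000303.12, chr8:106603351-106670246, plus strand) differed little between libraries of a genotype. It stood at 220.0 and 217 RPKM in KL against 122 and 119 RPKM in KLG4. The fall of 0.86 on the log2 scale (SE 0.10, limma adjusted p = 0.0026) was the smallest among the 10.

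Of the claudins, Cldn3 (ENSMUSG00000070473.4, chr5:134986214-134987472, plus strand) and Cldn4 (ENSMUSG00000047501.3, chr5:134945119-134946934, minus strand) are neighbours, 39279 bases apart. Cldn3 was at 99.5 and 101 RPKM in KL and at 48.3 and 53.8 RPKM in KLG4 (log2 fold change -0.97, SE 0.12, limma adjusted p = 0.0023). Cldn4 was at 144 and 111 RPKM in KL and at 57.7 and 66.2 RPKM in KLG4 (-1.03, SE 0.17, adjusted p = 0.0067). These neighbours fell by nearly the same amount, and the ratio of Cldn4 to Cldn3 overlapped between genotypes (1.45 and 1.10 in KL, 1.20 and 1.23 in KLG4).

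Cldn7 (ENSMUSG00000018569.12, chr11:69964779-69967885, plus strand), which is known to bind EpCAM, was at 52.8 and 39.3 RPKM in KL and at 21.5 and 20.4 RPKM in KLG4 (-1.12, SE 0.17, limma adjusted p = 0.0057). Cldn18 (ENSMUSG00000032473.13, chr9:99689461-99717267, minus strand), a claudin of alveolar and gastric epithelium, fell furthest, from 55.1 and 62.4 to 17.3 and 18.8 RPKM (-1.69, SE 0.13, limma adjusted p = 6.3e-04). It stood above Cldn7 in KL and below it in KLG4.

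Krt18, Krt8 and Krt19 were the most abundant of the 10 per kilobase. Krt8 (ENSMUSG00000049382.10, chr15:101996711-102004342, minus strand) was at 2747 and 2187 RPKM in KL and at 1324 and 1287 RPKM in KLG4 (-0.91, SE 0.16, limma adjusted p = 0.0089). Its filament partner Krt18 (ENSMUSG00000023043.7, chr15:102028216-102032026, plus strand), whose gene lies 23873 bases away, was at 3367 and 2400.3 RPKM in KL and at 1334 and 1385 RPKM in KLG4 (-1.06, SE 0.20, limma adjusted p = 0.010). The partners stayed near parity, with 1.23 and 1.10 Krt18 per Krt8 in KL and 1.01 and 1.08 in KLG4.

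Krt19 (ENSMUSG00000020911.14, chr11:100140810-100148665, minus strand), the smallest type I keratin, was at 1297 and 915 RPKM in KL and at 555 and 557 RPKM in KLG4 (-0.97, SE 0.19, limma adjusted p = 0.013). Krt7 (ENSMUSG00000023039.17, chr15:101411043-101430313, plus strand), a type II keratin of ducts and airways, was at 388 and 308 RPKM in KL and at 143 RPKM in both KLG4 libraries (-1.28, SE 0.15, limma adjusted p = 0.0021). Krt7 fell by more than Krt8, with ratios of 0.141 in both KL libraries and of 0.108 and 0.111 in KLG4. Reads were counted without strand and Gm671, Gm36026 and Wbscr25 overlap Krt7, Krt8 and Cldn3, so reads of these pairs cannot be fully told apart, and the pseudogene Krt8-ps, at 78.9 and 36.2 RPKM in KL and 8.82 and 6.31 RPKM in KLG4, shares sequence with Krt8.

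Because a ratio within a library does not depend on how the library was scaled, the other members were also set against Epcam. Per Epcam, Cdh1, Cldn4, Cldn7, Krt8, Krt18 and Krt19 were higher in both KLG4 libraries than in both KL libraries, with Krt8 at 4.31 and 5.21 in KL and 6.17 and 6.09 in KLG4. Krt7 per Epcam was at 0.608 and 0.734 in KL and at 0.666 and 0.674 in KLG4, and its groups overlapped, as did those of Cldn3 and Cldn18. Epcam and Krt7 were thus among the members with the larger falls.

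The order of levels was nearly the same in both genotypes. In KL tumor cells it ran from Krt18 and Krt8, whose libraries overlapped, through Krt19, Epcam, Krt7, Cdh1, Cldn4, Cldn3 and Cldn18 to Cldn7, and no other neighbours overlapped. In KLG4 tumor cells the last pair changed places and the values of no neighbours overlapped.

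Without KLG4 replicate 1 the direction of all 10 genes was kept with a median of -1.003, and 1 passed the threshold (Cldn18) in a fit that called 14.4% of all genes. Without KLG4 replicate 2 the median was -1.09 and 2 passed (Cldn3 and Cldn18), with 14.0% of all genes. In these fits the spread came from the KL pair and the lone KLG4 library was assumed to vary as much. Rescaling to reads outside mitochondrial genes left the 10 calls in place with a median log2 fold change of -0.93.

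Other genes of the same structures were examined from lists of junction components, keratins and regulators. For comparison with each list in tumor cells, 19.6% of all 13769 genes tested fell and 20.6% rose. Of 19 tight junction genes tested, 11 fell and 2 rose in KLG4 tumor cells, with a median log2 fold change of -0.70. Those that fell included Marveld3, a tight junction membrane protein (9.46 and 11.8 against 4.64 and 3.90 RPKM), Lsr, the angulin of tricellular contacts (125 and 81.5 against 46.4 and 41.6 RPKM), F11r, the adhesion molecule JAM-A (83.1 and 63.5 against 32.0 and 32.4 RPKM) and Crb3, an apical polarity protein (12.5 and 13.0 against 6.85 and 5.18 RPKM). The 2 that rose were claudins with low levels, Cldn1 from 0.0673 and 0.387 to 1.85 and 1.62 RPKM and Cldn10 from 0.485 and 0.5998 to 1.62 and 1.36 RPKM, and they are named because of this direction. The scaffold Tjp1 was at 15.8 and 32.6 RPKM in KL and at 16.2 and 15.6 RPKM in KLG4 (adjusted p = 0.27).

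Of 9 adherens junction genes tested, 7 fell and none rose, with a median of -0.73. They included the adhesion receptors Nectin2 (49.2 and 45.0 against 20.4 and 19.1 RPKM, log2 fold change -1.25) and Nectin4 (11.9 and 10.7 against 4.39 and 5.11 RPKM, -1.23) and the catenins Ctnnd1, which holds E-cadherin at the surface (24.1 and 31.5 against 14.6 and 14.7 RPKM, -0.91), and Ctnna1, which links its complex to actin (345 and 339 against 203 and 196 RPKM, -0.78). The desmosome list was alike in direction, since 5 of 7 genes tested fell and none rose (median -0.76). Among them were the plaque proteins Ppl (127 and 161 against 66.4 and 65.6 RPKM), Pkp2 (10.0 and 11.5 against 4.83 and 5.33 RPKM), Pkp3 and Evpl.

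Of 10 further keratins tested, 3 fell and 3 rose, with a median of -0.41, which is near the shares of all genes that fell (19.6%) and rose (20.6%). Krt20 (325 and 126 against 46.6 and 50.3 RPKM), Krt23 (490.5 and 298 against 192 and 193 RPKM) and Krt14 (11.7 and 10.9 against 6.19 and 4.54 RPKM) fell. Krt15 (7.50 and 5.56 against 10.6 and 11.4 RPKM), Krt5 (0.586 and 1.09 against 3.21 and 2.84 RPKM) and Krt17 (1.18 and 1.41 against 2.38 and 2.67 RPKM) rose. Krt5 and Krt14, which pair in basal cells, thus went in opposite directions. The 2 abundant keratins outside the 10, Krt20 and Krt23, therefore went in the direction of the 10.

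Of 19 epithelial regulators and membrane proteins tested, 10 fell and none rose, with a median of -0.57. The matriptase St14 was at 52.1 and 45.7 RPKM in KL and 23.4 and 24.7 RPKM in KLG4, its inhibitor Spint1 at 35.0 and 31.8 against 16.3 and 19.0 RPKM, the trafficking GTPase Rab25 at 13.6 and 12.02 against 6.03 and 8.71 RPKM, and the transcription factor Elf3 at 218 and 166 against 117 RPKM in both KLG4 libraries.

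Among 6 mesenchymal switch genes tested, a list of Vim, Fn1 and repressors of epithelial genes, 5 rose and none fell, with a median of 3.04. Vim, an intermediate filament of mesenchymal cells and leukocytes, was at 21.2 and 22.8 RPKM in KL and 347 and 335 RPKM in KLG4, Zeb2 at 0.733 and 1.28 against 17.1 and 16.3 RPKM, Zeb1 at 0.621 and 0.902 against 6.37 and 6.30 RPKM, and Snai2 at 0.134 and 0.163 against 1.62 and 1.86 RPKM. Markers of other cell types moved as well. The 8 leukocyte markers, all of them higher, summed to 22.3 and 29.2 RPKM in KL and to 220 and 230.2 RPKM in KLG4, and the 6 fibroblast markers, all higher, to 10.6 and 15.7 against 369.2 and 368.7 RPKM. Ptprc, which encodes CD45, excluded by the gate as it is mostly written, was at 0.834 and 2.06 RPKM in KL and at 26.7 and 27.4 RPKM in KLG4. Their part in the lower levels of the 10 genes was not tested.

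Epithelial markers did not all move with the 10 genes. The 8 AT2 markers all fell (summed RPKM 3623 and 4079 in KL, 1254 and 1270.4 in KLG4, median log2 fold change -1.57), and 5 of 6 AT1 markers fell and 1 rose (median -1.47). In contrast, the 4 club cell markers all rose (3395 and 4092 against 7150.2 and 7262 RPKM, median 1.15), and 0 of 5 ciliated cell markers passed limma in either direction (322 and 442 against 441 and 417 RPKM, 0 at an unadjusted p under 0.05).

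**Figure D2:**
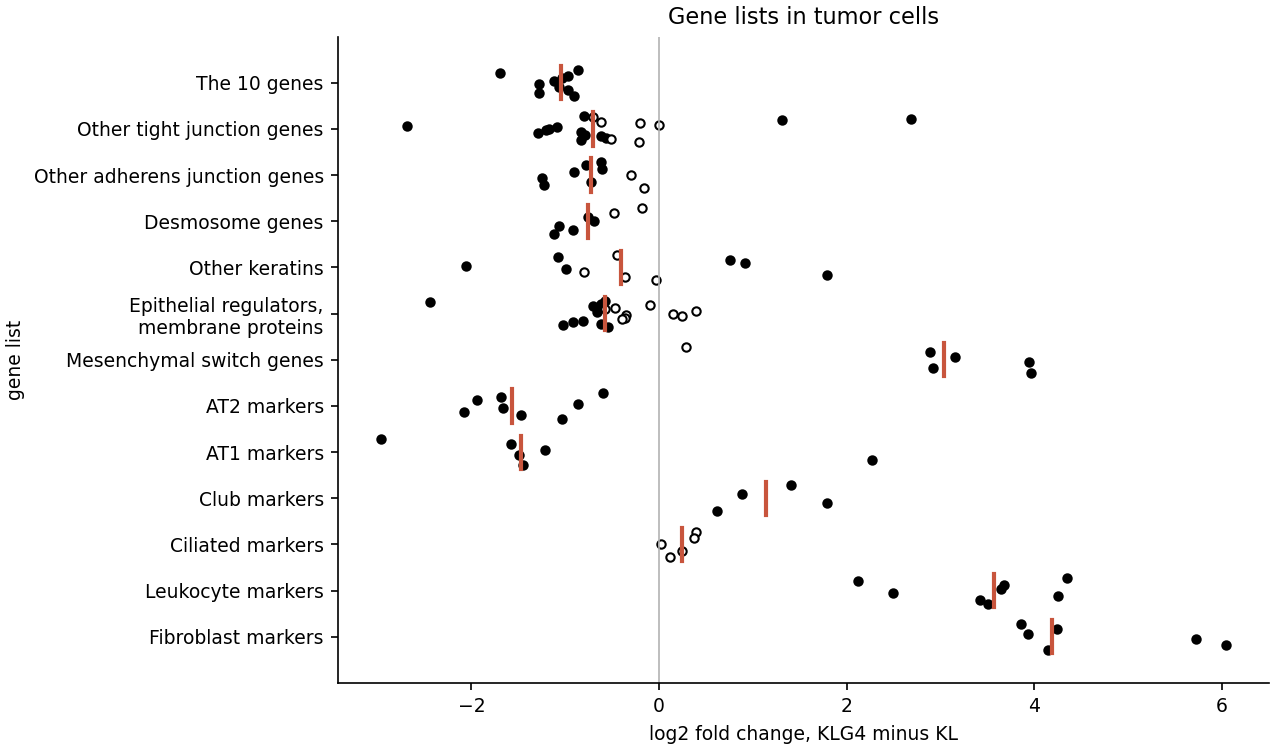
Log2 fold change (KLG4 minus KL) in tumor cells of each tested gene of the 10 and of 12 further lists, with filled points for genes that passed limma at an adjusted p under 0.05, open points for those that did not, and a red bar at the list median. The 10 genes lie between -1.69 and -0.86, the junction lists mostly left of 0, and the leukocyte and fibroblast lists right of 0.

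In TRMs the 10 genes differed widely in level, and most of them were lower in KLG4 while Cdh1 was higher. Cdh1, Epcam, Krt8, Krt18 and Krt19 were between 16.7 and 33.7 RPKM in KL, while Krt7 was at 4.12 and 4.49 RPKM and the 4 claudins were between 0.540 and 1.74 RPKM. Of the 8 genes tested none passed limma at an adjusted p under 0.05, where 1.8% of 10989 genes did so in either direction. At an unadjusted p under 0.05, 6 were lower in KLG4 and 1, Cdh1, was higher, beside 2.78% and 25.5% of all genes. Of the 8 genes tested, 6 had both KLG4 libraries below both KL libraries (8.95% of all genes tested), Cdh1 had both above (53.7%), and Epcam overlapped. Cldn7 and Cldn18, listed but not tested, were below as well. With limma-voom on recovered reads 7 of the 8 passed, 6 lower and Cdh1 higher. That fit called 18.1% of all genes. The number of members called was 0 without KL replicate 1 (1.03% of all genes called), 4 without KL replicate 2 (21.7%), 2 without KLG4 replicate 1 (1.37%) and 3 without KLG4 replicate 2 (1.97%).

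Cdh1 was at 16.8 and 26.2 RPKM in KL TRMs and at 33.3 and 39.9 RPKM in KLG4 TRMs. Both KLG4 libraries were above the KL libraries, with a log2 fold change of 0.79 (SE 0.26, limma adjusted p = 0.12), against a median of 0.38 for all genes. Relative to reads outside mitochondrial genes, where the median of all genes is -4.9e-04, the value was 0.40. Epcam was at 16.7 and 19.5 RPKM in KL and at 13.1 and 27.1 RPKM in KLG4, so that its 2 KLG4 libraries enclosed the KL ones (0.07, SE 0.36, adjusted p = 0.92), and its direction turned with the scaling, to -0.33 outside mitochondrial reads and -0.30 after quantile scaling.

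Krt8 was at 29.8 and 33.2 RPKM in KL TRMs and at 2.01 and 6.64 RPKM in KLG4 TRMs (log2 fold change -3.06, SE 0.53, limma adjusted p = 0.053). Krt18 was at 32.6 and 31.5 RPKM in KL and at 1.17 and 7.96 RPKM in KLG4 (-3.33, SE 0.80, limma adjusted p = 0.079). The KL libraries were close together, whereas KLG4 replicate 2 was well above KLG4 replicate 1 for both partners. Krt7 was at 4.49 and 4.12 RPKM in KL and at 0.439 and 1.04 RPKM in KLG4 (-2.49, SE 0.45, limma adjusted p = 0.055).

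Krt19 was also lower in both KLG4 TRM libraries, with a smaller log2 fold change than the other keratins, a difference that was not tested. It was at 30.0 and 33.7 RPKM in KL and at 15.9 and 23.2 RPKM in KLG4 (-0.72, SE 0.23, limma adjusted p = 0.12). Per Krt8, it stood at 1.01 and 1.02 in KL TRMs and at 7.94 and 3.49 in KLG4 TRMs, while Krt18 per Krt8 overlapped (1.09 and 0.948 against 0.585 and 1.20) and Krt7 per Krt8 was at 0.151 and 0.124 against 0.219 and 0.156. Per Krt8, Epcam went from 0.560 and 0.586 to 6.53 and 4.08 and Cdh1 from 0.566 and 0.789 to 16.6 and 6.01. These ratios do not depend on the scaling of a library, and all of them but that of Krt18 were above both KL libraries in both KLG4 libraries.

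The claudins in TRMs rested on few reads. Cldn3 had 14 and 20 reads in KL and 4 and 0 in KLG4, or 1.11 and 1.74 against 0.119 and 0 RPKM, where 3 reads in the library with none would be 0.203 RPKM. Its fitted log2 fold change of -3.34 (SE 0.82, limma adjusted p = 0.081) therefore depends on the pseudocount. Cldn4 was at 1.65 and 1.45 against 0.123 and 0.281 RPKM (-2.50, SE 0.61, limma adjusted p = 0.082). Cldn7 (1.33 and 0.674 against 0.230 and 0.262 RPKM) and Cldn18 (1.03 and 0.540 against 0.101 and 0.191 RPKM) did not reach the minimum for a test.

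Some markers of alveolar and airway epithelium were also lower in KLG4 TRMs. The 8 AT2 markers summed to 171 and 182 RPKM in KL and to 35.9 and 69.4 RPKM in KLG4, with 5 of 8 below in both KLG4 libraries, 2 above (Abca3 and Napsa), 2 called lower and none higher. None of the 3 basal cell markers was listed in the TRM table, and the 6 AT1 markers summed to 67.8 and 61.1 against 62.8 and 67.5 RPKM, with Ager, Aqp5, Emp2 and Rtkn2 below and Pdpn and Hopx above in both KLG4 libraries. Both club cell markers tested were below in both KLG4 libraries, and Scgb3a1, a secretoglobin of airway cells, fell from 5.02 and 8.05 to 0.4996 and 0.284 RPKM (limma adjusted p = 0.035). Markers of other tissue cells were lower as well. The 5 endothelial markers listed were below in both KLG4 libraries (summed RPKM 5.40 and 8.78 against 2.61 and 3.80), without a call among the 2 tested, and the 4 fibroblast markers listed summed to 1.42 and 3.21 against 0.726 and 0.985 RPKM. The share of all these cells in the result was not tested. As a check of the label, the leukocyte markers summed to 414 and 485 RPKM in KL and 542 and 502 RPKM in KLG4 TRMs. Those of alveolar macrophages summed to 8382 and 8251 RPKM in KL and 12647 and 11777 RPKM in KLG4 TRMs, where Marco and Chil3 were called higher. In MDMs they summed to 1241 and 2268 against 1371 and 1519 RPKM. The monocyte-derived macrophage markers summed to 44.9 and 35.7 RPKM in KL and 65.7 and 95.5 RPKM in KLG4 TRMs. Their sums in MDMs were 48.0 and 259 RPKM in KL and 67.7 and 63.0 RPKM in KLG4, so these sums overlapped between the 2 populations.

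Other junction genes in TRMs were not called. Among 10 tight junction, 8 adherens junction and 3 desmosome genes tested, 0 passed limma, with medians of 0.21, 0.44 and -2.80. Both KLG4 libraries were below both KL libraries in 3, 0 and 2 of them and above in 4, 4 and 0. Ctnna1, the catenin that joins the E-cadherin complex to actin, was at 47.9 and 57.0 RPKM in KL and 65.5 and 73.6 RPKM in KLG4 (log2 fold change 0.41). F11r was at 39.4 and 46.5 against 50.7 and 49.9 RPKM (0.23), where the median of all genes was 0.38. The desmosome genes Ppl (6.33 and 4.11 against 0.309 and 0.949 RPKM, -2.99) and Dsp (1.68 and 1.64 against 0.186 and 0.124 RPKM, -2.80) were lower in KLG4. Fn1, encoding fibronectin, was the only gene of the 6 junction, keratin, regulator and mesenchymal lists to be called in TRMs, at 46.3 and 39.2 against 149 and 290.0 RPKM (log2 fold change 2.28, SE 0.32, limma adjusted p = 0.044).

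In MDMs the members again were mostly lower in KLG4, but the libraries of a genotype differed widely from each other and no gene passed. Of 10474 genes tested, 0% passed limma at an adjusted p under 0.05 (706 genes, 6.74%, at an unadjusted p under 0.05), and limma-voom on recovered reads called 0 as well. Of the 7 members tested, 4 were lower at an unadjusted p under 0.05, Epcam, Cldn4, Krt7 and Krt18, beside 3.92% of all genes. Both KLG4 libraries lay below both KL libraries in 6 of the 7, against 19.1% of all genes tested, and Cdh1 overlapped. Cldn7 and Cldn18, listed but not tested, were below as well. The median log2 fold change of the 7 was -2.38, that of all genes 0.02.

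Krt18 was at 30.3 and 104 RPKM in KL MDMs and at 2.55 and 18.3 RPKM in KLG4 MDMs (log2 fold change -3.01, SE 1.10, limma adjusted p = 0.68). Krt8 had the same shape, with 23.5 and 89.5 RPKM in KL and 2.17 and 17.0 RPKM in KLG4 (-2.88, SE 1.16). Within each genotype replicate 2 was the higher library, by a factor that was larger than the gap from KL replicate 1 to KLG4 replicate 2. Krt19 was at 6.04 and 29.7 against 1.57 and 4.68 RPKM (-2.26, SE 0.92) and Krt7 at 2.99 and 8.76 against 0.517 and 1.95 RPKM (-2.22, SE 0.80).

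Epcam was at 5.89 and 17.4 RPKM in KL MDMs and at 0.903 and 3.77 RPKM in KLG4 MDMs (-2.38, SE 0.84), and Cldn4 at 2.08 and 6.47 against 0.0845 and 0.931 RPKM (-3.12, SE 1.02), each with a limma adjusted p of 0.68. Cldn7 (0.774 and 1.09 against 0.158 and 0.237 RPKM) and Cldn18 (0.532 and 0.779 against 0.207 and 0.319 RPKM) were below the minimum for a test. Cdh1 was the exception. It was at 5.58 and 13.3 RPKM in KL and at 11.1 and 14.9 RPKM in KLG4, with overlapping groups and a log2 fold change of 0.57 (SE 0.47, limma adjusted p = 0.71). Cdh1 per Epcam was at 0.948 and 0.764 in KL MDMs and at 12.3 and 3.96 in KLG4 MDMs.

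In MDMs, too, the AT2 markers moved with the members between libraries, at 159 and 381 RPKM in KL and 41.4 and 74.9 RPKM in KLG4, with the higher sum in the replicate that was higher for the keratins. The 6 AT1 markers summed to 54.6 and 114 against 33.2 and 31.7 RPKM, and of 5 endothelial markers tested 4 had both KLG4 libraries below (median -1.95). None of the 3 basal cell markers was listed, the fibroblast markers summed to 2.01 and 10.4 against 1.35 RPKM in both KLG4 libraries, and the leukocyte markers to 869 and 693 against 875 and 865 RPKM. Their part in the result was not tested. Without KL replicate 1 the 7 members were all below 0 with a median of -3.40 and 1 was called (Krt19), in a fit that called 25.6% of all genes, and without KL replicate 2 the median was -1.60 and 0 were called. Without KLG4 replicate 1 it was -1.43 and without KLG4 replicate 2 it was -3.35, with 0 called in both.

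**Figure D3:**
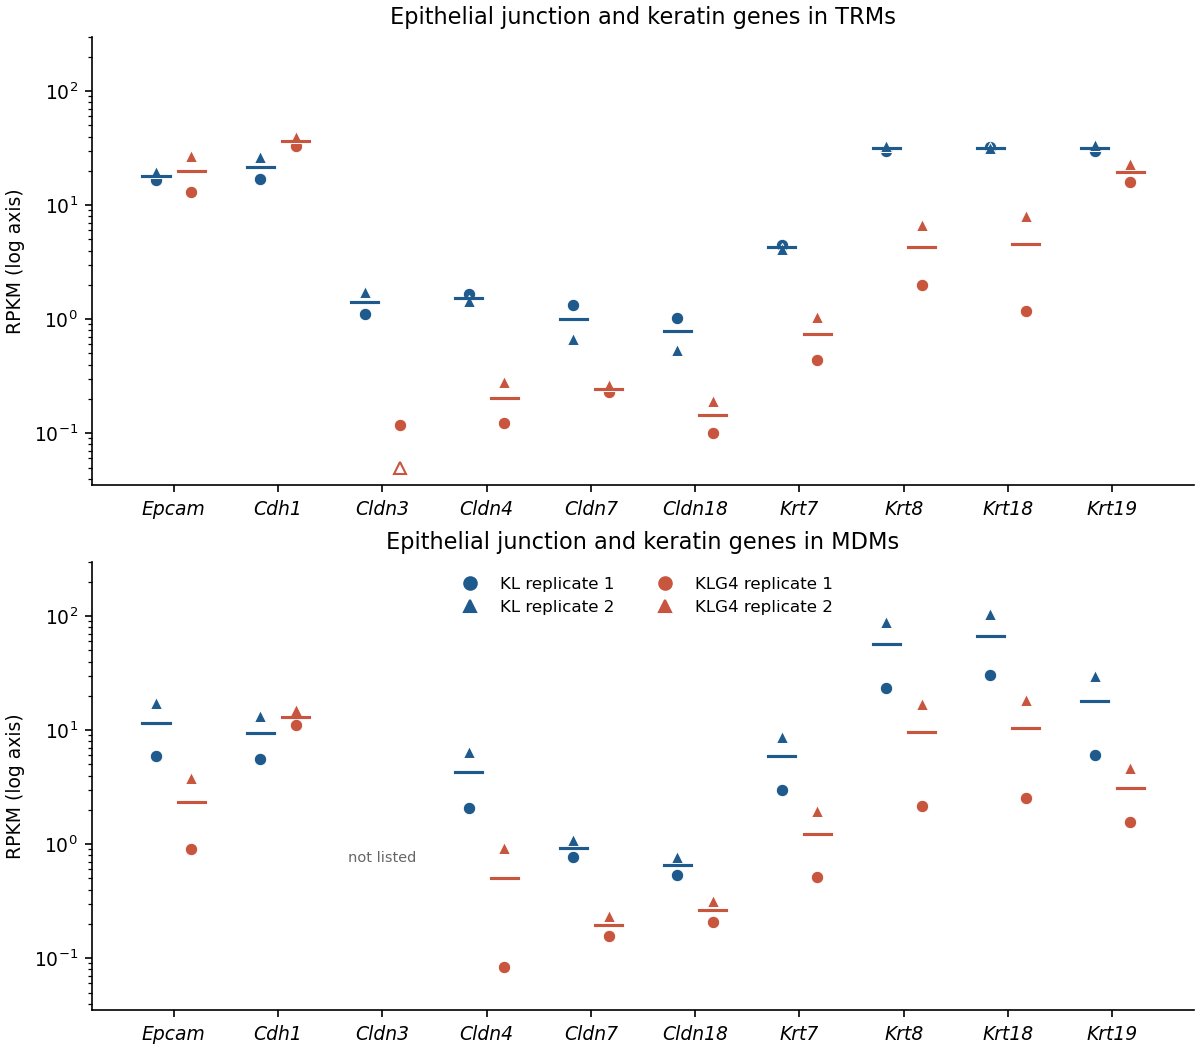
RPKM (log axis) of the 10 genes in each TRM library (upper panel) and MDM library (lower panel), with KL in blue, KLG4 in red, circles for replicate 1, triangles for replicate 2 and a bar at the group mean (n = 2). The open triangle stands for Cldn3 at 0 reads, drawn at the foot of the axis, and Cdh1 is the gene whose KLG4 mean is the higher in both panels.

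**Figure D4:**
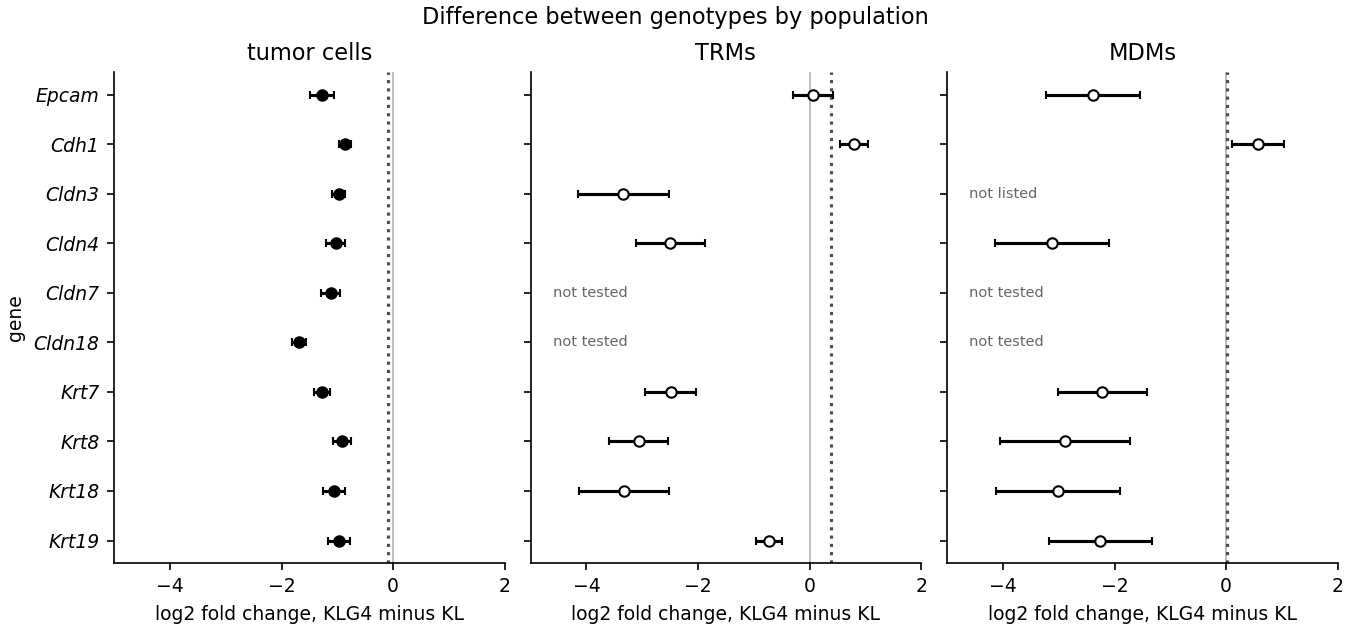
Log2 fold change (KLG4 minus KL) with its SE from limma for each member in tumor cells, TRMs and MDMs, filled where the adjusted p was under 0.05 and open where it was not, with a dotted line at the median of all genes tested. All 10 tumor cell points are filled and left of 0, whereas Cdh1 lies at 0.79 in TRMs and 0.57 in MDMs.

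The 3 tables were normalised separately, so levels across populations are set side by side without a test. Krt8 had a mean of 2467 RPKM in KL tumor cells, 31.5 RPKM in KL TRMs and 56.5 RPKM in KL MDMs. As a percentage of the tumor cell mean of the same genotype, the claudins Cldn4, Cldn7 and Cldn18 and the keratins Krt7, Krt8 and Krt18 formed a group of 6. Their median was 1.29% and 1.16% in KL TRMs, 0.254% and 0.656% in KLG4 TRMs, 1.00% and 3.07% in KL MDMs, and 0.275% and 1.36% in KLG4 MDMs. The range of the 6 genes was 1.13% to 2.90% and 0.919% to 1.46% in the KL TRM libraries and 0.0863% to 1.10% and 0.454% to 1.25% in the KLG4 TRM libraries. These ranges, pooled over different genes, overlapped between genotypes. Gene by gene, both KLG4 TRM libraries were below both KL ones for Cldn4, Cldn7, Krt7, Krt8 and Krt18, and Cldn18 overlapped. In MDMs the range of the 6 genes was 0.860% to 1.68% and 1.32% to 5.09% in KL and 0.136% to 1.14% and 1.13% to 1.76% in KLG4.

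Cdh1 stood above these 6 genes in every TRM and MDM library. It reached 7.70% and 11.98% of the tumor cell mean in KL TRMs, 27.6% and 33.1% in KLG4 TRMs, 2.55% and 6.09% in KL MDMs, and 9.20% and 12.4% in KLG4 MDMs. Epcam was above the 6 in the TRM libraries, with 3.15%, 3.68%, 6.16% and 12.7%, and so was Krt19 in 3 of them, with 3.05% in KL replicate 2 and 2.87% and 4.17% in KLG4, while in KL replicate 1 Krt19 (2.72%) lay below Cldn7 (2.90%). In MDMs Epcam was at 1.11% and 3.30% in KL and 0.424% and 1.77% in KLG4, and Krt19 at 0.546% and 2.68% in KL and 0.283% and 0.842% in KLG4, at or near the range of the 6 genes. The denominators of the KLG4 libraries were themselves the lower KLG4 tumor cell means.

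**Figure D5:**
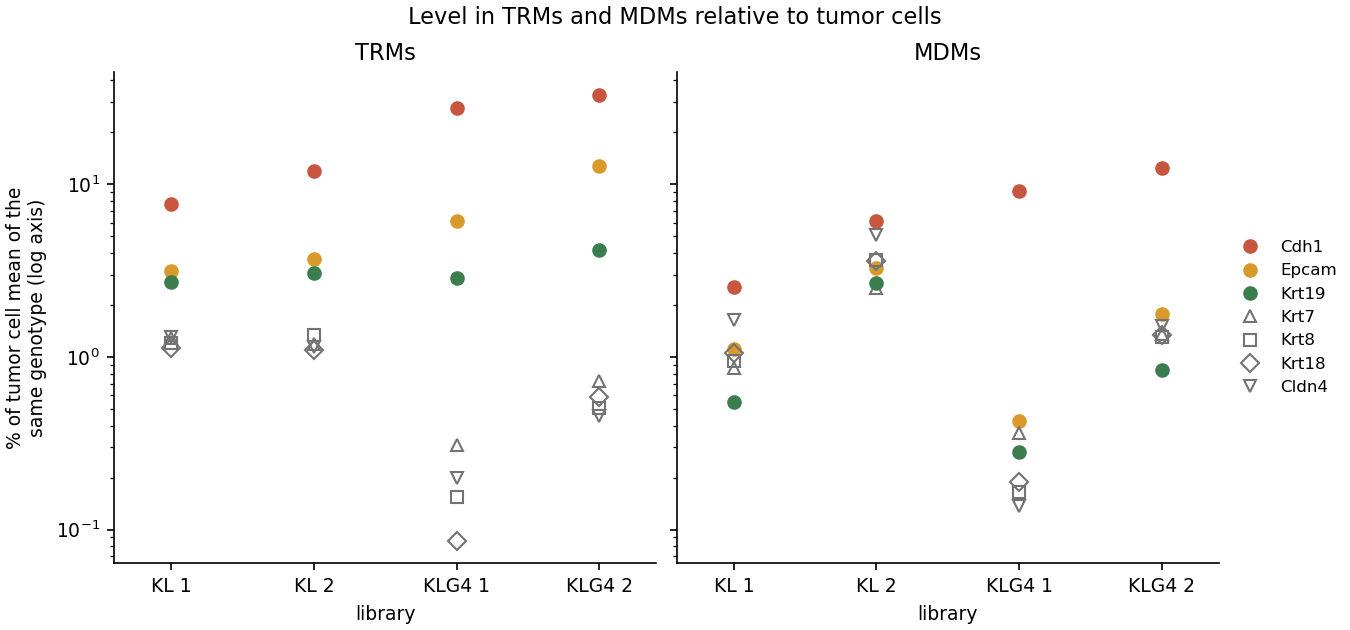
Level of 7 of the genes in each TRM and MDM library as a percentage (log axis) of the tumor cell mean of the same genotype, with Cdh1 in red, Epcam in orange, Krt19 in green and the other 4 genes as open grey symbols. Cdh1 is the highest point in all 8 libraries, and Epcam and Krt19 stand above the grey symbols in TRMs and lie among or near them in MDMs.

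The order of levels within a population also differed. In KL TRMs Krt18, Krt19 and Krt8 led (32.0, 31.9 and 31.5 RPKM, overlapping), followed by Cdh1 and Epcam, which overlapped. In KLG4 TRMs Cdh1 led at 36.6 RPKM, ahead of Epcam and Krt19 (20.1 and 19.6 RPKM, overlapping), with Krt18 and Krt8 at 4.57 and 4.33 RPKM. In MDMs the order ran Krt18, Krt8, Krt19, Epcam and Cdh1 in KL and was led by Cdh1 (13.0 RPKM), Krt18 (10.4 RPKM) and Krt8 (9.58 RPKM) in KLG4. The libraries of these neighbours overlapped in both genotypes.

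Over all 12 libraries, the genes most like the mean log2 profile of 9 members were ranked among 6198 genes by the root mean square difference, a description over libraries that share genotype and population. Tpm1, a tropomyosin of actin filaments, was the nearest with 0.33 on the log2 scale, and Foxa2, a transcription factor of lung epithelium, was among the next genes in that ranking. Tpm1 had means of 671 and 284 RPKM in KL and KLG4 tumor cells, 12.5 and 5.82 RPKM in TRMs and 17.3 and 4.16 RPKM in MDMs. St8sia6, Atp1b1, Ociad2, Lmo7 and 2010300C02Rik were also near. Of the members themselves Cldn7 was the nearest to their mean profile (0.42) and Cdh1 the farthest (1.74), followed by Krt18 (1.03) and Epcam (0.96).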

How the data were processed

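Paired-end reads of poly(A) RNA from non-directional libraries were, per the labels and the methods, trimmed with Trim Galore 0.6.4, aligned with HISAT2 2.0.5 to the mouse genome with Ensembl annotation and counted with featureCounts 2.0.0 without strand. The values deposited by the authors are RPKM (counted reads divided by exon length and by the read total of the library), in 1 table per population and with no factor between libraries. The exon coordinates of the tumor cell table are GRCm38. The deposited tables also held the authors' own log2 fold changes, p-values and FDR values, and those of TRMs and MDMs mean log2 levels and F scores, none of which was used.

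Groups and replicate numbers came from the sample titles. RPKM times gene length gave whole reads within 0.05 for at least 99.99% of values below 2000 reads, and hence the depth of each library. Odd numbers made up 16.9% to 30.5% of counts below 25, so both mates were mostly counted and reads are not independent molecules. The limit of 3 reads for a count of 0 covers counting error only.

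Each table was fitted alone with limma 3.58.1 (R 4.3.3), lmFit and eBayes with a trend, two-sided, on log2(RPKM + 0.1), KLG4 minus KL, for genes that reached 1 RPKM in 2 or more of the 4 libraries. Fold changes on this scale understate those of low genes. P-values were adjusted over all genes of the table by Benjamini-Hochberg, and "rose" and "fell" mean an adjusted p under 0.05. The genes, the lists and the rule for named genes (the 10 members, and up to 4 called genes a list) were chosen with earlier results of these data known. Genes outside this rule are named too. Among them are Krt5, Krt17, Cldn1, Cldn10, Snai2 and the uncalled Tjp1 in tumor cells, and the uncalled Ctnna1, F11r, Ppl and Dsp in TRMs. Alternatives were another pseudocount, filter, scaling, variance model, a replicate block, limma-voom on recovered reads, and each library left out. Some alleles and genes are not reported here.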

Additional observations from a re-analysis of the deposited data

Results flagged for a closer look

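The difference between genotypes in Cdh1 went in opposite directions in the tumor cell and TRM tables. Both KLG4 tumor cell libraries were below both KL libraries (log2 fold change -0.86), whereas both KLG4 TRM libraries were above both KL libraries (0.79). The difference between the populations was not tested, because the tables were normalised separately. The value in TRMs did not pass limma (adjusted p = 0.12), and the median of all genes in that table was 0.38.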

How the results depend on the processing

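In tumor cells the 10 genes were lower under all 13 alternatives and all 10 passed the threshold except without a KLG4 library. Leaving out 1 library gave 1 to 10 called and a median log2 fold change of -0.88 to -1.27, and rescaling outside mitochondrial reads gave -0.93. In TRMs, where 0 of 8 were called with a median of -2.49, a pseudocount of 1 gave 2 called (median -1.14, 4.46% of all genes called), a mean of at least 5 RPKM gave 1 of 5 (-0.72, 9.61%), limma-voom on recovered reads gave 7, and leaving out 1 library gave 0 to 4. Over all genes of that table, among the fits that kept every library, the calls ran from 12 without the variance trend to 1930 with limma-voom, against 198. Epcam in TRMs turned from 0.07 to -0.30 with quantile scaling, -0.33 outside mitochondrial reads, -0.016 with limma-voom, and ran from -0.46 without KLG4 replicate 2 through -0.05 without KL replicate 1 to 0.59 without KLG4 replicate 1, and the cause was not tested. In MDMs leaving out 1 library gave 0 to 1 called and a median of -1.43 to -3.40, and Cdh1, at 0.57, ran from -0.049 without KL replicate 1 to 1.19 without KL replicate 2.

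Over all genes, the correlation of deviations between same-numbered libraries was 0.02 in tumor cells, -0.06 in TRMs and 0.05 in MDMs. With 2 pairs in each population, this cannot show whether the replicate numbers pair the samples. In MDMs all 9 members listed were higher in replicate 2 than in replicate 1 in both genotypes. With a replicate block 10 members were called in tumor cells (39.1% of all genes), 3 in TRMs (4.28%) and 0 in MDMs (0%). A group of 2 libraries limits every call, and in MDMs the claudins, with at most 122 reads a library, are limited by depth as well.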
